A study of Mus musculus with 3 samples.

Results

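The paired immune receptors are surface proteins of myeloid cells that come in inhibitory and activating forms with related outer domains. Their transcripts were followed in monocytes and macrophages isolated from mouse skin wounds. The 9 genes described here were chosen by name: Trem1, Trem3, Cd300a, Cd300lf, Cd300ld, Pirb, Pilra, Sirpa and Lilrb4a. All 9 were found by symbol among the 31053 genes counted, and all 9 had UMIs in each of the 3 libraries. A UMI, or unique molecular identifier, stands for 1 captured mRNA molecule. The cells came from male C57BL6/J mice, an inbred strain, at day 3, day 6 or day 10 after wounding. Each day was 1 library of the 10x droplet method, and each library pooled 2 mice whose cells cannot be separated. The groups carry no transgene, deletion or drug in the labels, there is no unwounded group, and the labels give neither the age of the mice nor a sort for these cells. With 1 library a day there was no test between days, and intervals on day values cover counting error only.

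Inhibitory members of these families carry tyrosine motifs in their tails that recruit phosphatases such as Ptpn6 and Inpp5d. Activating members have short tails and signal through the adaptors Tyrobp or Fcer1g, which engage the kinase Syk. Among the genes followed, Trem1, Trem3 and Cd300ld are activating receptors, and Cd300a, Cd300lf, Pirb, Pilra, Sirpa and Lilrb4a are inhibitory ones. Myeloid cells usually carry several of both kinds, and the balance between them sets how strongly a cell answers microbes, dying cells and antibody complexes.

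In mm10 coordinates with the GENCODE vM21 annotation, Trem1 lies on chromosome 17 from 48232768 to 48246924 on the plus strand, and Trem3 follows it on the same strand 852 bp further on. The 3 Cd300 genes share chromosome 11: Cd300a runs from 114890041 to 114904654 on the plus strand, and Cd300ld from 114982274 to 114989922 and Cd300lf from 115116214 to 115133992 on the minus strand. Pirb is on chromosome 7, Pilra on chromosome 5, Sirpa on chromosome 2 and Lilrb4a on chromosome 10. Trem1, Cd300lf and Pilra each overlap 1 gene on the opposite strand, and Lilrb4a overlaps 2 gene models, 1 of them on its own strand. Several members have close relatives, such as Lilr4b for Lilrb4a, Pira2 for Pirb and the Sirpb1 genes for Sirpa. Reads that could not be told apart between relatives may have been lost or split, so levels of Lilrb4a, Pirb and Sirpa are uncertain in that respect.

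Promoter sequences, from 250 bases before to 50 bases after a gene's first base, were found in RefSeq (GRCm38.p6) for 6 of the 9 genes, the ones not found being Trem3, Sirpa and Lilrb4a. The 3 below are shown because these genes had different patterns over the gates described further on: Trem1 was lowest in the Cd209a gate, Cd300a highest there, and Cd300ld higher in the C1qa gate than in the Cd209a gate. They are chr17:48232489-48232788 (plus strand), chr11:114889791-114890090 (plus strand) and chr11:114989837-114990136 (minus strand). Capitals mark matches, on either strand, to the core of a PU.1-type ETS site, GAGGAA, and to a C/EBP-type site, TTGCNNAA.
Trem1: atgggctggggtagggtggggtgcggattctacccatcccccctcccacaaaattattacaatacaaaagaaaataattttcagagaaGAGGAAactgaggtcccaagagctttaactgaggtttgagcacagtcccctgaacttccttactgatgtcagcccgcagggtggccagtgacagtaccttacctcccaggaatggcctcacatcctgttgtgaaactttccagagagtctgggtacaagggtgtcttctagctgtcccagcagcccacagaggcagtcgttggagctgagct
Cd300a: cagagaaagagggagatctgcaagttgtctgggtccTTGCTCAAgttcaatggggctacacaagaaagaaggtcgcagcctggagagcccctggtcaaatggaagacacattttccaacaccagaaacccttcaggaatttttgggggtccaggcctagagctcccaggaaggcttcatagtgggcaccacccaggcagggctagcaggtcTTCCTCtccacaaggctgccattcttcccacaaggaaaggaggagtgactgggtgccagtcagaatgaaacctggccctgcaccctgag
Cd300ld: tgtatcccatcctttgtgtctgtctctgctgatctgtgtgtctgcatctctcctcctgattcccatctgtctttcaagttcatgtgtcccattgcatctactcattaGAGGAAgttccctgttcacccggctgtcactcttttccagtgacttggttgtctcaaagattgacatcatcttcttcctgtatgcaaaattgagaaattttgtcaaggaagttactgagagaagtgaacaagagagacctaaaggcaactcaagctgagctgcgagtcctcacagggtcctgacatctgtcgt
The ETS core was present in 6 of 6 promoters, and 28.3% of the 32851 RefSeq promoters of this length hold it. In the printed sequences it starts at position -162 of Trem1, -39 of Cd300a and -143 of Cd300ld, counted from the gene's first base in RefSeq as 0. For Trem1 and Cd300ld that base differs from the first base in the GENCODE coordinates given above. The C/EBP-type letters were found in Cd300a, at position -214, and in Pilra, against 10.8% of all promoters. The AP-1-type letters TGANTCA were found in 0 of 6 promoters (7.81% of all), and an interferon-stimulated response element in 1 of 6, that of Pilra (3.44% of all). These matches describe letters only, and no binding was measured.

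The analysis kept 900, 598 and 1362 cells at days 3, 6 and 10, with 7263942 to 12115163 UMIs a library and medians of 8285 to 11778.5 UMIs a cell. Cell barcodes were shared between libraries in 2 cases, both between days 6 and 10. Summed markers of monocytes were 7630, 1809 and 2138 CPM (UMIs per 1000000 UMIs of the library's kept cells) at days 3, 6 and 10, and those of macrophages were 4991, 12316 and 14362 CPM. Markers of fibroblasts, keratinocytes, mast cells and basophils, eosinophils and B cells each summed to at most 23.9 CPM in every library. That ceiling does not cover T and NK cells, whose marker Klrd1 had 903, 893 and 1116 UMIs in the Cd209a gate described below. Nor does it cover endothelial and mural cells, with at least 20 UMIs over days 3 and 10 for 5 of 8 markers. Of 12 neutrophil markers, 4 or 5 were at 0 in a library, among them Ly6g and Ngp, and the list summed to 29.71 to 63.88 CPM.

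Over all kept cells, Pirb and Sirpa had the highest levels of the 9 genes and Trem3 the lowest, at each of the 3 days. Since each UMI marks 1 transcript end, levels were compared between genes without division by length. Sirpa, the receptor for the don't-eat-me ligand Cd47, stood at 295, 449 and 351 CPM at days 3, 6 and 10. Pirb, which binds MHC class I molecules, stood at 323, 236 and 237 CPM. Pirb was above Sirpa at day 3 and below it at days 6 and 10, without overlap of the counting intervals. Cd300a, a receptor for phospholipids exposed on dying cells, came next at 153, 164 and 153 CPM. Lilrb4a, an inhibitory receptor of myeloid and mast cells, had 145, 83.0 and 106 CPM, and Cd300ld had 102, 107 and 114 CPM. Cd300lf, which takes part in the uptake of dying cells, had 73.9, 74.9 and 47.2 CPM, and Pilra, an inhibitory receptor for certain O-glycosylated proteins, 68.2, 39.1 and 63.6 CPM. Trem1, an amplifier of inflammatory responses, had 98.3, 32.9 and 40.6 CPM. Trem3, its activating neighbour, had 30.2, 5.92 and 10.5 CPM, from 295, 43 and 127 UMIs. In the order of levels, the neighbours whose counting intervals overlapped were, at day 3, Cd300a and Lilrb4a, Cd300ld and Trem1, and Cd300lf and Pilra. At day 6 they were Lilrb4a and Cd300lf, and Pilra and Trem1, and at day 10 Cd300ld and Lilrb4a, and Cd300lf and Trem1. Together the 9 genes summed to 1289, 1191 and 1124 CPM.

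**Figure D1:**
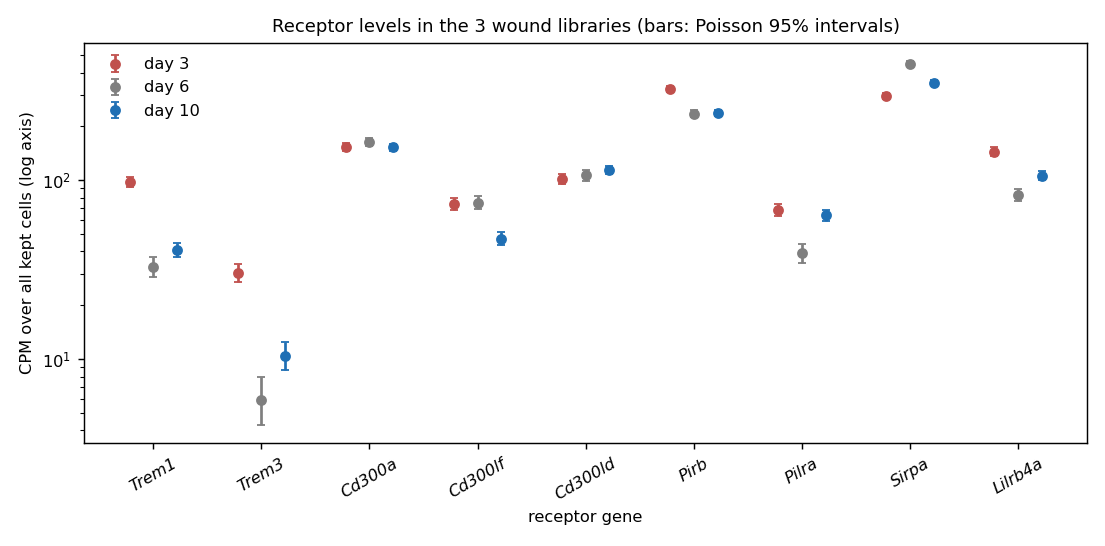
Levels of the 9 receptor genes over all kept cells, in CPM on a log axis, with 1 point per library (day 3, 6 or 10) and Poisson 95% counting intervals as bars. Trem1 and Trem3 are highest at day 3 (98.3 and 30.2 CPM), Sirpa is highest at day 6 (449 CPM), and Cd300a lies between 153 and 164 CPM.

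The activating receptors Trem1 and Trem3 were lower at both later days than at day 3. Trem1 was 2.42-fold lower at day 10 (95% counting interval 2.17 to 2.70) and 2.99-fold lower at day 6 (2.59 to 3.46). Trem3 was 2.88-fold lower at day 10 (2.34 to 3.58) and 5.11-fold lower at day 6 (3.70 to 7.21). The third activating receptor, Cd300ld, did not follow them, at 1.12 times its day 3 level on day 10 (1.03 to 1.22). Of the inhibitory receptors, Cd300lf was 1.56-fold lower at day 10 than at day 3 (1.40 to 1.75), though under 1.5-fold when cells were weighted equally (log2 ratio -0.45). With a threshold of 1.5-fold, 3 of 9 genes were lower at day 10 than at day 3, where 8.94% of the 11289 genes with at least 20 UMIs were lower, and 0 of 9 were higher, against 24.6%. The median log2 ratio of the 9 genes was -0.45, and that of all these genes 0.17. Scaling the libraries by TMM or median-of-ratios factors, which takes that shift out, brought the count of lower genes to 5 by adding Pirb and Lilrb4a. Under the same factors Cd300a changed from a log2 ratio of 0.00 to -0.15 or -0.18, and Cd300ld from 0.16 to 0.02 or -0.02.

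Day 6 stood apart from a steady course for several genes. Pilra was 1.74-fold lower at day 6 than at day 3 (1.51 to 2.01) and then 1.63-fold higher at day 10 than at day 6 (1.42 to 1.87). Lilrb4a was likewise 1.74-fold lower at day 6 (1.58 to 1.92). Sirpa ran the other way, 1.52 times its day 3 level at day 6 (1.45 to 1.60). Its ratio fell under 1.5 with the mitochondrial limit at 20%, with no cell filter, without neutrophil-marked cells, with either set of factors and with cells weighted equally. Between days 6 and 3, 4 of 9 genes were lower (Trem1, Trem3, Pilra and Lilrb4a), where 7.79% of genes were, and 1 was higher, where 28.6% were. Between days 10 and 6, 2 of 9 were higher (Trem3 and Pilra), against 5.87% of genes, and 1 was lower (Cd300lf), against 10.3%. Each pair of these 3 comparisons shares a library.

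A summed level does not separate fewer cells with a transcript from fewer transcripts in each cell. Cells with at least 1 UMI were counted after thinning each cell to 2000 UMIs. At this depth few cells hold a UMI of a gene as low as Trem1, so its share largely follows its mean level. Such a share cannot make that separation. For Trem1 the share was 15.5% of 879 cells at day 3 (exact binomial 95% interval 13.1 to 18.0%), 6.72% of 551 at day 6 (4.77 to 9.14%) and 7.47% of 1272 at day 10 (6.08 to 9.05%). For Trem3 it was 5.35%, 1.63% and 1.81%. Pirb was detected in 44.0%, 40.3% and 37.2% of cells and Sirpa in 44.4%, 53.4% and 49.4%. Cd300a was detected in 22.0%, 24.5% and 22.1%, and Cd300lf in 15.6%, 12.9% and 8.33%. At full depth Trem1 was seen in 42.0%, 18.1% and 20.4% of cells, and Sirpa in 88.0%, 88.5% and 83.3%. Cells of types that should lack these receptors numbered 5 in all, too few to measure the share that free RNA gives. At 5000 UMIs a cell, Trem1 was detected in 9.68%, 2.94% and 2.44% of the cells of the Cd209a gate described below, in 38.5%, 33.3% and 13.2% of those of the Ly6c2 gate and in 26.7%, 8.91% and 17.1% of those of the C1qa gate. The Cd209a gate had the lowest share of these 3 gates at each day, although its cells were the deepest before thinning, with medians of 16227, 18303 and 14263.5 UMIs against 11511, 11646 and 10350 in the Ly6c2 gate.

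Most cells carried transcripts of inhibitory members, alone or with activating ones. After thinning to 5000 UMIs, at least 1 activating and at least 1 inhibitory receptor were both detected in 63.7% of 765 cells at day 3, 43.9% of 467 at day 6 and 47.7% of 986 at day 10. Inhibitory receptors without an activating one were detected in 34.4%, 54.2% and 49.7% of cells. Activating receptors alone were seen in 1.18%, 0.214% and 1.32%. There are 6 inhibitory and 3 activating genes in the set, and the inhibitory ones hold the most abundant, so these shares reflect number and level as well as pairing. The median cell had 4 of the 9 genes detected at day 3 and 3 at days 6 and 10.

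To compare kinds of cells within a library, cells were gated by 3 genes: Ly6c2, a marker of inflammatory monocytes, C1qa, a complement gene of macrophages, and Cd209a, a lectin of monocyte-derived and dendritic cells. A cell with at least 3 UMIs of Cd209a entered the Cd209a gate, and the others entered the Ly6c2 or the C1qa gate by at least 3 UMIs of that gene alone. The Ly6c2 gate held 315, 19 and 68 cells at days 3, 6 and 10, the C1qa gate 77, 247 and 605, and the Cd209a gate 125, 102 and 166. Cells positive for both Ly6c2 and C1qa numbered 48, 10 and 1, and 335, 220 and 522 cells met no gate. With the gate genes themselves left out of the sums, dendritic cell markers reached 1104, 1380 and 1054 CPM in the Cd209a gate at days 3, 6 and 10, and 40.2 to 103 CPM in the Ly6c2 and C1qa gates. Macrophage markers reached 14117, 22358 and 25068 CPM in the C1qa gate, and monocyte markers 9824, 6995 and 8547 CPM in the Ly6c2 gate. Markers of T and NK cells in the Cd209a gate came almost wholly from Klrd1, at 429.1 to 487.6 CPM, while Cd3e, Trac and Ncr1 were at 0. In the 19 Ly6c2-gate cells of day 6, the NK genes Nkg7, Klrb1c and Ncr1 reached 92.8, 59.0 and 67.5 CPM. The neutrophil list summed to 77.1 to 152 CPM in the Ly6c2 gate, nearly all of it Mmp8, with Ly6g, Retnlg and Ngp at 0.

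Differences between gates were tested with edgeR's quasi-likelihood test on UMIs summed per library and gate, with library as a block and Benjamini-Hochberg adjustment over 10155 genes. Sums of under 20 cells were left out, so the Ly6c2 gate entered with days 3 and 10. The 3 libraries are the 3 days, and the test sets a gate difference against its spread over days, not over mice. The receptors had different patterns over the gates, although all but Cd300a had estimates below 0 in the Cd209a gate against the C1qa gate.

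Cd300a was the only gene of the 9 called higher in the Cd209a gate than in the C1qa gate. It stood at 317, 288 and 349 CPM in the Cd209a gate at days 3, 6 and 10, and at 94.1, 126 and 87.1 CPM in the C1qa gate, with no overlap. The edgeR log2 fold was 1.81 ± 0.24 (SE), a 3.51-fold difference, with an adjusted p of 0.000163. About the same part of its UMIs, 44.6%, 44.3% and 44.2%, came from the Cd209a gate at each day, from 13.9%, 17.1% and 12.2% of the cells. The cells of this gate were the deepest, so the gate held a larger part of all UMIs than of cells. It held 2104359 of 9757866, 1831275 of 7263942 and 2350910 of 12115163 UMIs. The Ly6c2 gate showed Cd300a levels of 123 and 260 CPM in the sums of days 3 and 10, so that the day 10 sum came near the Cd209a gate, and the 19 cells of day 6 gave 101 CPM. Its edgeR log2 fold in the C1qa gate against the Ly6c2 gate was -1.04 ± 0.28, with an adjusted p of 0.0477. That call held in 5 of 16 alternatives, with adjusted p-values of 0.000321 to 0.776 by edgeR or DESeq2. It was lost by DESeq2, without the block (edgeR adjusted p 0.0581), without doublets, without neutrophil-marked cells and without the day 6 library, among others, and the estimate was smallest without the day 10 library (-0.33, edgeR adjusted p 0.776). The Cd209a gate against the Ly6c2 gate gave 0.77 ± 0.27, with an edgeR adjusted p of 0.0834.

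Among the 3 gates of a single gene, Trem1 and Trem3 were highest in the Ly6c2 gate and lowest in the Cd209a gate. Cells that met no gate had 114, 53.2 and 63.9 CPM of Trem1 at days 3, 6 and 10. At day 10 this was above the Ly6c2 gate, and these cells held 49.4% of the Trem1 UMIs. Trem3 in them was below the Ly6c2 gate at days 3 and 10. Trem1 stood at 135 and 40.6 CPM in the Ly6c2 gate at days 3 and 10, at 61.3, 25.2 and 38.7 CPM in the C1qa gate at days 3, 6 and 10, and at 26.1, 10.9 and 6.81 CPM in the Cd209a gate. At day 10 the Ly6c2 and C1qa gates had nearly the same level. Its edgeR log2 fold was -2.33 ± 0.31 in the Cd209a gate against the Ly6c2 gate (adjusted p 0.000413) and -1.52 ± 0.28 against the C1qa gate (adjusted p 0.00138). Without library as a block, the edgeR adjusted p of the latter was 0.117. Between the C1qa and Ly6c2 gates it was -0.81 ± 0.29, with an edgeR adjusted p of 0.112. Trem3 had 50.1 and 33.8 CPM in the Ly6c2 gate and 14.3, 4.90 and 7.67 CPM in the C1qa gate, with no overlap. It was 4.01-fold lower in the C1qa gate (log2 fold -2.0 ± 0.36, edgeR adjusted p 0.00900). In the Cd209a gate it was down to 11, 1 and 2 UMIs, so the edgeR log2 fold of -3.92 ± 0.41 against the Ly6c2 gate (adjusted p 8.55e-05) rests on few molecules. Against the C1qa gate it was -1.92 ± 0.45, with an edgeR adjusted p of 0.00573 (0.0940 at most over the alternatives), on the same few molecules. Neutrophils express both genes, and 42 of the 315 Ly6c2-gate cells at day 3 had at least 3 UMIs of neutrophil markers. Mmp8 gave 273 UMIs of that list there, while Ly6g, Retnlg and Ngp were at 0. Leaving these cells out therefore cannot tell neutrophils from other cells with Mmp8, and a neutrophil source was not tested. Without neutrophil-marked cells the Trem3 log2 fold between the C1qa and Ly6c2 gates was -1.76, with an edgeR adjusted p of 0.024, and that of Trem1 between the Cd209a and Ly6c2 gates was -2.26.

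Among the 3 gates of a single gene, Cd300ld and Sirpa had their highest levels in the C1qa gate; in the 48 cells of day 3 positive for both Ly6c2 and C1qa, Cd300ld reached 175 CPM. Cd300ld stood at 138, 135 and 153 CPM there at days 3, 6 and 10, against 55.1, 66.6 and 68.1 CPM in the Cd209a gate. The edgeR log2 fold was -1.01 ± 0.19 for the Cd209a gate (adjusted p 0.00167). Sirpa stood at 446, 627 and 453 CPM in the C1qa gate, against 199, 261 and 209 CPM in the Cd209a gate, with an edgeR log2 fold of -1.03 ± 0.16 (adjusted p 0.000441). Both were also above the Ly6c2 gate, where Sirpa had 276 and 253 CPM and Cd300ld 91.7 and 63.6 CPM at days 3 and 10. Those differences, 0.63 ± 0.19 and 0.68 ± 0.23, had edgeR adjusted p-values of 0.0637 and 0.0966. With sums of at least 10 cells, a setting not planned beforehand, they were 0.0166 and 0.0282 by edgeR. This lets in the Ly6c2 gate of day 6, whose 19 cells held NK genes. It also lets in the 10 cells of day 6 positive for both Ly6c2 and C1qa. Each difference was called in 6 of 16 alternatives. Estimates over the alternatives were 0.53 to 0.78 for Sirpa and 0.39 to 1.10 for Cd300ld.

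Pilra was low in the Cd209a gate alone. It had 21.4, 20.2 and 24.2 CPM there, against 69.8, 45.8 and 71.2 CPM in the C1qa gate and 71.5 and 79.8 CPM in the Ly6c2 gate. The edgeR log2 folds were -1.32 ± 0.19 (adjusted p 0.000261) and -1.64 ± 0.22 (adjusted p 0.000413), and both calls held in the 16 alternatives run. Cd300lf was lower in the Cd209a gate (39.9, 43.1 and 30.2 CPM) than in the Ly6c2 gate (90.9 and 44.6 CPM), with an edgeR log2 fold of -1.04 ± 0.25 (adjusted p 0.0168). That call was lost by DESeq2 and without library as a block (edgeR adjusted p 0.0910). It was also lost without the day 3 library, which left the day 10 sum alone for the Ly6c2 gate. At day 10 the ratio of the Cd209a to the Ly6c2 gate was 0.677, with a counting interval that includes 1 (0.442 to 1.06).

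Pirb and Lilrb4a differed least between gates. Pirb lay between 214 and 366 CPM in all 8 sums of the 3 gates that were tested, and its edgeR adjusted p-values were 0.0773 to 0.773. Lilrb4a had 172 and 126 CPM in the Ly6c2 gate, 138, 70.3 and 102 CPM in the C1qa gate, and 114, 65.0 and 75.7 CPM in the Cd209a gate. Its edgeR log2 fold in the Cd209a gate against the Ly6c2 gate was -0.62 ± 0.19, with an adjusted p of 0.0490. The adjusted p was under 0.05 in 7 of 16 alternatives. Leaving out any 1 of the 3 libraries, or the block (adjusted p 0.145 by edgeR), took it past the threshold.

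**Figure D2:**
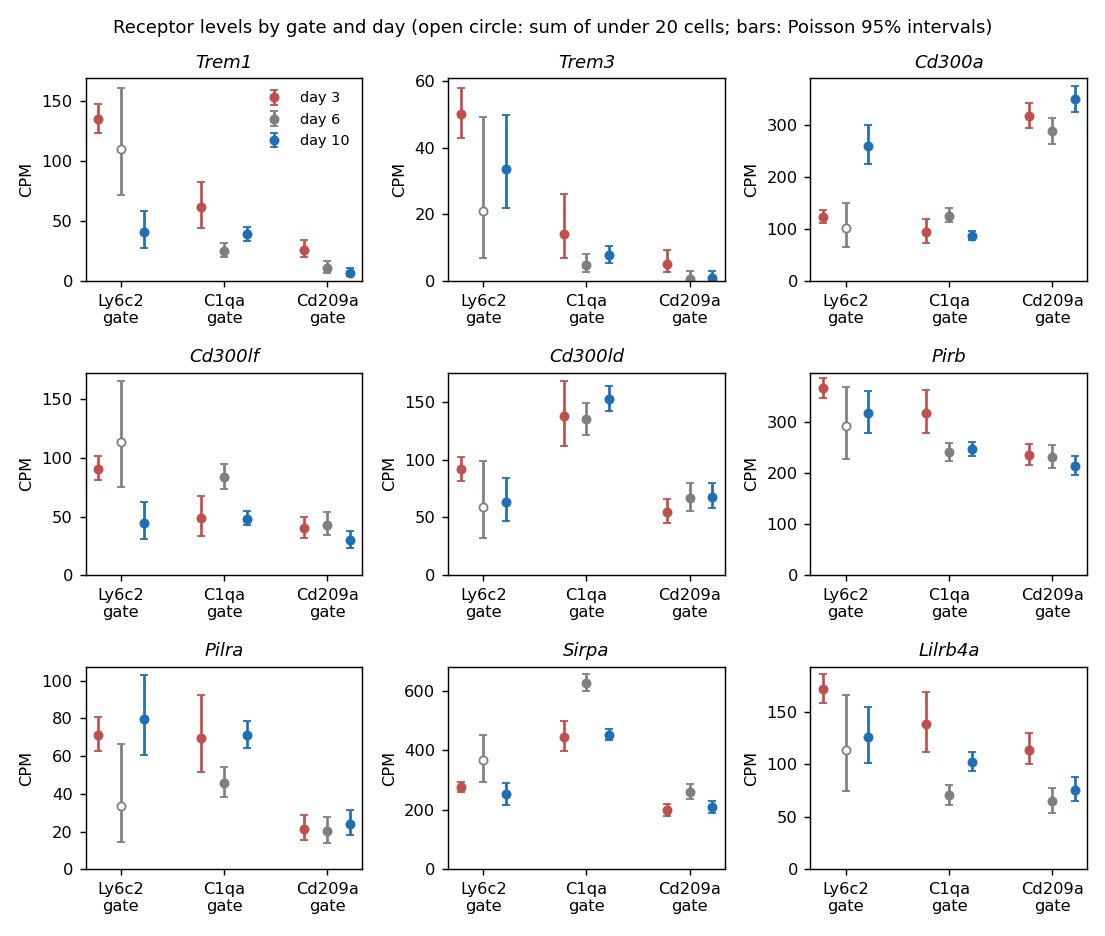
Levels of each receptor in CPM (linear axis from 0) in the Ly6c2, C1qa and Cd209a gates, with 1 point per day, Poisson 95% counting intervals as bars, and an open circle for the sum of 19 cells. Cd300a is highest in the Cd209a gate (288 to 349 CPM), Sirpa and Cd300ld in the C1qa gate, and Trem1 and Trem3 at day 3 in the Ly6c2 gate (135 and 50.1 CPM).

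Counted together, 1 of 9 genes was higher and 5 were lower in the Cd209a gate than in the C1qa gate, where 17.5% and 18.5% of all genes were. Against the Ly6c2 gate 0 of 9 were higher and 5 lower in the Cd209a gate, where 6.85% and 8.6% of all genes were. In the C1qa gate 0 of 9 were higher and 2 lower than in the Ly6c2 gate, where 3.53% and 4.33% of all genes were. With library totals in place of TMM factors these were 2 higher and 1 lower of 9, and the split of all genes moved from 358 higher and 440 lower to 563 and 282. The counts of 0 higher stand beside 358 and 696 genes called higher among all genes by edgeR, and 220 and 376 by DESeq2. DESeq2 called 1 and 0 of the 9 higher. At an unadjusted p under 0.05, Cd300ld and Sirpa were also higher in the C1qa gate than in the Ly6c2 gate, and Cd300a in the Cd209a gate. Without library as a block, 3 genes in place of 5 were lower in the Cd209a gate in each of its 2 contrasts. The median log2 folds of the 9 genes were -1.01, -0.62 and -0.49 in these 3 contrasts, beside -0.01, 0.00 and 0.04 over all genes tested.

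**Figure D3:**
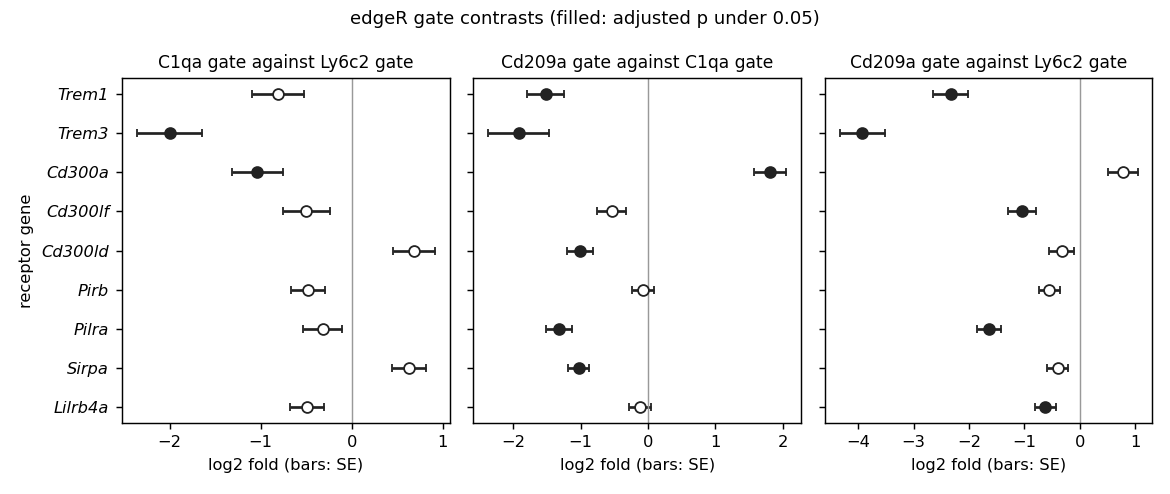
edgeR log2 folds of the 9 receptors between gates, with standard errors as bars; filled points have an adjusted p under 0.05. In the panel of the Cd209a gate against the C1qa gate, Cd300a lies at 1.81 and the other 8 genes lie below 0.

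Day ratios within gates were compared next, since the gates held different shares of the cells at each day. In the Ly6c2 gate, Cd300a was 2.11 times its day 3 level at day 10 (1.77 to 2.50), while over all kept cells the ratio was 1.001 (0.935 to 1.07). Trem1 was 3.32-fold lower in that gate at day 10 (2.30 to 4.98) and 3.84-fold lower in the Cd209a gate (2.17 to 7.18), from 55 and 16 UMIs. In the C1qa gate it was 1.58-fold lower (1.11 to 2.21). Trem3 was 1.48-fold lower in the Ly6c2 gate (0.972 to 2.35), an interval that includes no difference, against 2.88-fold over all cells. The Ly6c2 gate held 35.0% of kept cells at day 3 and 4.99% at day 10, and 60.3% and 19.7% of the Trem3 UMIs. In the cells that met no gate Trem3 was 1.84-fold lower at day 10 (1.31 to 2.61). Those cells held 28.1% and 47.2% of its UMIs at days 3 and 10. Cd300lf was 2.04-fold lower in the Ly6c2 gate (1.42 to 3.01) and had a ratio of 0.993 in the C1qa gate (0.693 to 1.47). Sirpa had day 10 to day 3 ratios of 0.915, 1.01 and 1.05 in the Ly6c2, C1qa and Cd209a gates.

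In the Ly6c2 gate at day 10 against day 3, 1 of 9 genes was higher (Cd300a) and 2 were lower (Trem1 and Cd300lf), where 15.5% and 18.7% of genes were. In the C1qa gate 0 of 9 were higher and 2 lower (Trem1 and Trem3), where 20.7% and 14.5% of genes were; the interval of Trem3, 1.86-fold lower, includes no difference (0.829 to 3.78). In the Cd209a gate 0 of the 8 genes with enough UMIs were higher and 2 lower (Trem1 and Lilrb4a), where 11.8% and 10.4% of genes were. With 8 or 9 genes, the counts in the Ly6c2 gate are near the shares over all genes.

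The low day 6 levels of Pilra and Lilrb4a were not alike in all sets of cells. In the Cd209a gate Pilra had a day 6 to day 3 ratio of 0.945 (0.595 to 1.49). Lilrb4a was 1.755-fold lower in that gate (1.403 to 2.205). In cells that met no gate, Pilra was 2.01-fold lower (1.60 to 2.54) and Lilrb4a 1.28-fold lower (1.09 to 1.51). Both low levels were seen within the C1qa gate. Pilra was 1.52-fold lower there at day 6 than at day 3 (1.07 to 2.13) and 1.55-fold higher at day 10 than at day 6 (1.27 to 1.91). Lilrb4a was 1.97-fold lower at day 6 (1.53 to 2.52). Cd300lf was 1.73 times its day 3 level at day 6 (1.20 to 2.55), against 1.01 times over all kept cells (0.905 to 1.13), and 1.74-fold lower at day 10 than at day 6 (1.45 to 2.08). Between days 6 and 3 in this gate, 1 of 9 genes was higher (Cd300lf) and 4 were lower (Trem1, Trem3, Pilra and Lilrb4a), where 26.4% and 10.8% of genes were. Between days 10 and 6, 3 were higher (Trem1, Trem3 and Pilra) and 1 lower (Cd300lf), where 7.35% and 12.8% of genes were. The Trem3 ratio there, 1.57 from 40 and 14 UMIs, has an interval that includes no difference (0.834 to 3.12). The day 3 sum of this gate held 77 cells, and its Trem3 level rests on 10 UMIs. Neutrophil markers in the C1qa gate summed to 14.25, 64.04 and 21.48 CPM at days 3, 6 and 10, and their part in the day 6 values was not tested.

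**Figure D4:**
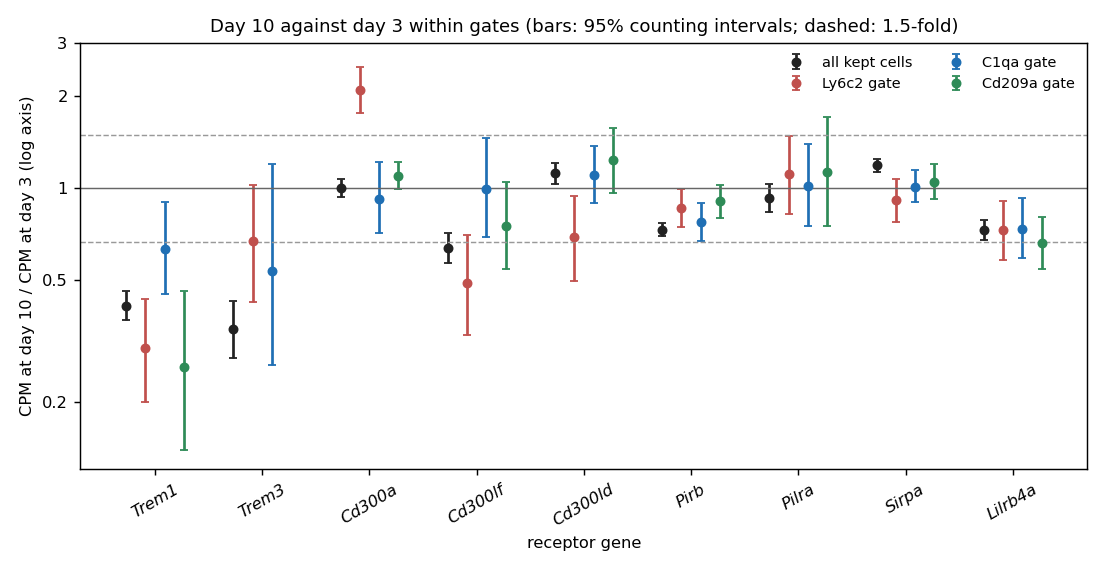
Ratio of CPM at day 10 to CPM at day 3 on a log axis, over all kept cells and within each gate, with 95% counting intervals as bars and dashed lines at 1.5-fold in either direction. Cd300a lies at 2.11 in the Ly6c2 gate and at 1.001 over all cells; Trem1 lies below 1 in all 4 sets of cells.

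The signalling partners of these receptors were compared in the same way. The list of adaptors and kinases of the activating arm held 12 genes. In the C1qa gate against the Ly6c2 gate, edgeR called 5 of them lower and 0 higher, against 4.33% and 3.53% of all genes. Tyrobp, Fcer1g, Lyn and Fgr were among the lower ones, and Src and Vav1 had estimates above 0 that were not called. Tyrobp, the adaptor of Trem1 and Trem3, had 2992 and 3964 CPM in the Ly6c2 gate at days 3 and 10 and 2105, 1478 and 1759 CPM in the C1qa gate (edgeR log2 fold -1.0 ± 0.18, adjusted p 0.00973). Fgr, a Src-family kinase, had a log2 fold of -1.58 ± 0.28 (edgeR adjusted p 0.00875). Over all kept cells at day 10 against day 3, the kinase Src was 4.76-fold higher, the adaptor Hcst 1.55-fold higher and the kinase Lyn 1.55-fold lower. Of 10 genes listed as effectors of the inhibitory arm, 0 were higher and 3 lower at day 10, where 24.6% and 8.94% of all genes were. They were Dok2, an adaptor that restrains kinase signalling (1.85-fold), Socs3, an inhibitor of cytokine signalling (1.66-fold), and Ptpn6, the main phosphatase of inhibitory receptors (1.52-fold). Grap2, an adaptor placed in that list by name, and Ptpn11 had its largest ratios, at 1.26 and 1.25. The lists group genes by name, and no gene's role in either arm was tested.

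Ligands were measured in the same cells. Cd47, the ligand of Sirpa, stood at 440, 440 and 437 CPM at days 3, 6 and 10. B2m, the light chain of the MHC class I ligands of Pirb, stood at 2301, 2382 and 1472 CPM, 1.56-fold lower at day 10 than at day 3. Pglyrp1, which can engage Trem1, was low at 9.63, 4.96 and 3.88 CPM, and in the Ly6c2 gate it had 17.7 and 17.6 CPM at days 3 and 10. Pianp, a ligand of Pilra, had 2, 48 and 42 UMIs in the 3 libraries. Of the 10 ligands and other partners, 3 were higher and 2 lower at day 10 than at day 3, where 24.6% and 8.94% of all genes were, and Apoe was 3.09-fold higher.

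Of 38 other receptors of these families, 30 were found by symbol and 24 had enough UMIs for the comparison of day 10 with day 3, of which 6 were higher and 8 lower, where 24.6% and 8.94% of all genes were. Trem2, a receptor for lipids on macrophages, stood at 116, 338 and 299 CPM, and Siglec1 at 21.7, 7.85 and 2.89 CPM. Trem2 was 3.13-fold higher in the C1qa gate than in the Ly6c2 gate (edgeR log2 fold 1.64 ± 0.32, adjusted p 0.0126), whereas its relative Trem3 was lower there. Among the Cd300 relatives, Cd300lg was higher in the Cd209a gate than in the C1qa gate, as Cd300a was (edgeR log2 fold 3.88 ± 0.43, adjusted p 4.26e-05). Cd300c was higher too, from low levels of at most 6.55 CPM (3.90 ± 0.86, edgeR adjusted p 0.00429). Cd300lb was lower, as Cd300ld was (-0.99 ± 0.21, edgeR adjusted p 0.00315). Of the Sirpb1 genes, the 3 measured ones were each lower in the C1qa gate than in the Ly6c2 gate by edgeR, with log2 folds of -2.13, -1.61 and -1.32 for Sirpb1a, Sirpb1b and Sirpb1c. Sirpa itself was not called in that contrast, and its estimate was above 0. Lilr4b, the close relative of Lilrb4a, was more abundant, at 584, 414 and 356 CPM, and was 1.64-fold lower at day 10 than at day 3.

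Across the 12 gate-by-day sums of at least 20 cells, the level of Cd300a ran against those of the other members. Trem1 and Trem3 had a Pearson r of 0.93 on log2(CPM + 1), and Cd300ld and Sirpa one of 0.87. Cd300a had negative values with all 8 others, from -0.34 with Pirb to -0.88 with Cd300ld. Between those 8 genes the only negative value was -0.08, for Sirpa and Lilrb4a. The genes most like Trem1 were Smox, Plaur and Clec4e (r of 0.974, 0.971 and 0.965), and those most like Trem3 were Vcan, Hp and Tarm1 (0.974, 0.971 and 0.970). The genes most like Sirpa were Ncstn, Vwa5a and Cltc (0.991, 0.982 and 0.976). The sums share 3 libraries, so these values are descriptions without a test. The set of 12 sums was chosen after the data were seen, since 1 of all 15 sums held 1 cell; over the 15, Trem1 was most like Ccr1, Smox and Vcan (0.966, 0.965 and 0.961), Trem3 most like Plcb1, Gpat3 and Klra2 (0.967, 0.937 and 0.929), and Sirpa most like Vwa5a, Dhrs3 and Stab1 (0.963, 0.947 and 0.943). Of the 3 genes named over the 12 sums, the 15 sums thus shared 1 for Trem1, 0 for Trem3 and 1 for Sirpa.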

How the data were processed

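Fresh skin wound cells were processed on the 10x Chromium platform, per the labels' protocols. The authors deposited filtered barcode matrices of raw UMI counts, made with Cell Ranger 3.0.2 on mm10, per the submitters' processing notes; no source used here states the annotation release. The 9 members and all gene lists were chosen with earlier results of these data known. Columns of other series numbered 0.

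Barcodes were kept as cells from 200 detected genes upwards if mitochondrial UMIs made up less than 10%; 1472, 1196 and 2209 barcodes gave 900, 598 and 1362 cells. Scrublet marked 10, 5 and 5 cells as doublets, which stayed in. Levels are UMIs per 1000000 UMIs of the kept cells (CPM), with exact Poisson 95% intervals. Day ratios have exact conditional binomial 95% intervals and were counted from 1.5-fold upwards, for genes with at least 20 UMIs over both libraries; there is 1 library a day, so no test was made. Shares of cells have exact binomial (Clopper-Pearson) intervals, after thinning to 2000 UMIs, which left out 21, 47 and 90 shallower cells, and pairs were counted at 5000 UMIs. All intervals cover counting error only.

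Cells were gated on raw counts of at least 3 UMIs, and gates are not cell types. The 9 sums of at least 20 cells (Ly6c2, double, C1qa and Cd209a gates) were tested with edgeR 4.0.16 (quasi-likelihood, TMM factors, filterByExpr, library as block), leaving 3 residual degrees of freedom; the 3 gate genes were kept out of counts. Benjamini-Hochberg adjusted p-values at 0.05 or below were called. DESeq2 1.42.0 was an alternative, with other factors, gates, cell filters and left-out libraries. Of the steps, only the edgeR gate test was tried on simulated counts, for the Cd209a gate against the C1qa gate. Named genes are the members, the extremes of each list, and the 3 genes most like a member on log2(CPM + 1); the relatives and partners named beyond these, such as Tyrobp, Cd300lb, Lilr4b and the Sirpb1 genes, were chosen after their values were seen. A further signalling gene is not reported here. Promoters came from RefSeq, loci from GENCODE vM21. Software was Python 3.11.15, scanpy 1.11.5, scipy 1.17.1, numpy 2.4.6 and R 4.3.3.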

Additional observations from a re-analysis of the deposited data

Results flagged for a closer look

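Barcodes left out by the cell filter also held receptor UMIs. In the 572, 598 and 847 barcodes left out at days 3, 6 and 10, the 9 genes summed to 1388, 1034 and 1071 CPM, against 1289, 1191 and 1124 CPM in kept cells. Cd300a was lower in them (53.4, 56.2 and 59.8 CPM, against 153 to 164 CPM), whereas Lilrb4a was higher (266, 134 and 174 CPM, against 145, 83.0 and 106 CPM) and so was Pirb (448, 287 and 319 CPM). Trem1 lay on opposite sides of 1 in the C1qa and Cd209a gates, with a ratio of day 10 to day 6 of 1.54 in the C1qa gate (1.17 to 2.04) and 0.623 in the Cd209a gate (0.302 to 1.27). The latter rests on 16 and 20 UMIs and its interval includes 1; the difference between the gates was not tested.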

How the results depend on the processing

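Of 578 recomputed day ratios of the members 539 moved by less than their counting interval and 39 moved further. Of 432 recomputed gate contrasts 373 kept their side of the threshold, 26 lost the call, 33 gained one and 0 of the called ones changed direction. Estimates that were not called crossed 0 without the day 3 library for Cd300lf between the C1qa and Ly6c2 gates (0.03), Pirb between the Cd209a and C1qa gates (0.03) and Cd300ld between the Cd209a and Ly6c2 gates (0.16). Shares of cells with a UMI moved by more than their counting interval with depth in 53 of 54 comparisons, so they are read only at matched depth. For each change below the cause was not tested.

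Over all kept cells, 5 members were lower at day 10 than at day 3 with TMM and with median-of-ratios factors. At day 6 against day 3, 0 were higher with the 20% mitochondrial limit, no cell filter, neutrophil-marked cells left out, either set of factors, a 2-fold threshold or the mean of per-cell CPM, and 2 were lower at 2-fold. At day 10 against day 6, 0 were higher at 2-fold and 1 with per-cell CPM, and 0 were lower with no cell filter, TMM factors, 2-fold or per-cell CPM. In the Ly6c2 gate 4 were lower at day 10 than at day 3 with TMM factors. In the C1qa gate, a gate of 1 UMI gave 1 lower at day 10 than at day 3, 2 higher at day 6 than at day 3 (2 also with the gate on thinned cells) and 1 higher at day 10 than at day 6. In the Cd209a gate 1 was lower at day 10 than at day 3 with the 20% limit and with a gate of 5 UMIs.

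Between the C1qa and Ly6c2 gates, members called higher were 1 by DESeq2 and 2 with a gate of 1 UMI, a gate on thinned cells, library totals, sums of 10 cells or the 20% limit, and 0 to 1 leaving out 1 library. Members called lower were 4 with a gate of 1 UMI and 1 by DESeq2, with library totals, without neutrophil-marked cells, without the replicate block, with only these gates or without doublets, and 1 to 2 leaving out 1 library. Of all genes, 220 were higher by DESeq2, 542 with a gate of 1 UMI, 563 with library totals, 552 with the 20% limit, 713 with no filter, 105 with only these gates, and 191 to 744 leaving out 1 library. Lower were 682 with a gate of 1 UMI, 282 with library totals, 716 with no filter, 291 without the replicate block, 61 with only these gates, and 127 to 750 leaving out 1 library. Between the Cd209a and C1qa gates, 3 members were lower without the replicate block and 5 to 6 leaving out 1 library; of all genes 1129 were higher and 1204 lower by DESeq2, and 1119 to 1861 and 1342 to 2052 leaving out 1 library. Between the Cd209a and Ly6c2 gates, 1 member was higher with a gate of 1 UMI, a gate on thinned cells, sums of 10 cells, the 20% limit, no filter or only these gates, and 0 to 1 leaving out 1 library. Members lower were 3 by DESeq2 and 3 without the replicate block, and 3 to 4 leaving out 1 library. Of all genes 376 were higher and 566 lower by DESeq2, and 373 to 635 and 576 to 809 leaving out 1 library. The labels give no replicate numbers that pair samples; library is the block of the reported test, and without it the counts of all genes were 382 and 291, 1373 and 1537, and 563 and 655 in these 3 contrasts. Depth limits Trem3 most, since its sums hold as few as 1 UMI.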

Other observations

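Other receptors of these families divided the gates as well. Lair1, an inhibitory receptor for collagen, had 98.3, 125 and 65.2 CPM in the C1qa gate at days 3, 6 and 10, above the 16.2, 12.01 and 6.81 CPM of the Cd209a gate (edgeR log2 fold -2.92 ± 0.22, adjusted p 2.83e-06). Siglecg, an inhibitory receptor for sialic acids, was the reverse, with 39.4, 53.0 and 54.0 CPM in the Cd209a gate and 1.43, 0.350 and 1.15 CPM in the C1qa gate. Cd33, another receptor for sialic acids, stood at 18.96, 53.7 and 39.8 CPM over all kept cells at the 3 days. Treml2, a relative of Trem1 and Trem3, was 4.29-fold lower at day 10 than at day 3 (95% counting interval 3.29 to 5.66). Grap2, an adaptor, was near 0 in the C1qa gate (1.43, 1.40 and 1.15 CPM) and reached 21.9, 30.6 and 31.9 CPM in the Cd209a gate (edgeR log2 fold 4.67 ± 0.33, adjusted p 2.21e-06).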
